A study of Mus musculus with 4 samples.

Results

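Glycolysis enzymes were followed through the cell states of mouse tumours driven by SMO-M2, an always active form of the Hedgehog signal transducer Smoothened. The set held 10 genes of 32286 features counted: the hexokinases Hk1 and Hk2, Gpi1, Pfkp, Aldoa, Pgk1, the enolases Eno1 and Eno2, Pkm and Ldha. They were chosen by name, with earlier results of these data known. Fresh tumour tissue, labelled MB, was dissociated and captured with the 10x Genomics 3' kit in 4 libraries, 1 for each genotype and sex. SG tumours carried fSMO-M2;hGFAPcre, in which Cre recombinase is driven by a human GFAP promoter active in neural progenitors and glia. YSG tumours carried fYap1;fSMO-M2;hGFAPcre, so that SMO-M2 and Cre were shared by all 4 libraries and only the floxed Yap1 allele differed. The YSG animals were described as rescued, and tissue was taken at end point. Ages, treatments and the number of animals per library were not given in the sources used here.

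Glycolysis splits glucose into pyruvate and passes the energy to ATP, and lactate dehydrogenase can turn the pyruvate into lactate. Many steps have several isoenzymes, and tissues differ in which they use. Granule neuron progenitors of the cerebellum, which divide under Hedgehog signalling and are the cells from which tumours of this kind grow, are known for a high rate of glycolysis with Hk2 as a Hedgehog-induced hexokinase. Postmitotic neurons are known for Hk1, for the enolase Eno2 and for oxidising lactate and pyruvate. Several glycolysis genes are targets of the hypoxia-inducible factors, which bind a core of the letters ACGTG or GCGTG.

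The promoter windows of Hk2, Pgk1 and Ldha are shown. These 3 were among the 6 members that fell from cycling to postmitotic cells. They are also the only members with a window that holds 2 or more matches to the ACGTG form of that core. Pkm, Eno1 and Gpi1 fell too, with 1 match in a Pkm window and 0 in those of Eno1 and Gpi1. Each window is the 250 bases before a RefSeq start (build GRCm38.p6), printed in the sense of the gene, with ACGTG and its reverse complement CACGT in capitals. The Hk2 window lies at chr6:82774455-82774704 on the minus strand, the Pgk1 window at chrX:106186850-106187099 on the plus strand and the Ldha window at chr7:46845554-46845803 on the plus strand.
Hk2: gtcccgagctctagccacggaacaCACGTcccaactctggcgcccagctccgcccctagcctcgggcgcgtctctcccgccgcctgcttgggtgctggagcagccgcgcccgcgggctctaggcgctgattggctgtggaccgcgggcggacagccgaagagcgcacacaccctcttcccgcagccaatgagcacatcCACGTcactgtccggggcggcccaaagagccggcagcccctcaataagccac
Pgk1: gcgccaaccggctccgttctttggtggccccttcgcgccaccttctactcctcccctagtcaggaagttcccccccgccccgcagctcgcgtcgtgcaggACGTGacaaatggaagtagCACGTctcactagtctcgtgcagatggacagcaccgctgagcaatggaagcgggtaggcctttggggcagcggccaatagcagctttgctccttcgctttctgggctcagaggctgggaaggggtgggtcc
Ldha: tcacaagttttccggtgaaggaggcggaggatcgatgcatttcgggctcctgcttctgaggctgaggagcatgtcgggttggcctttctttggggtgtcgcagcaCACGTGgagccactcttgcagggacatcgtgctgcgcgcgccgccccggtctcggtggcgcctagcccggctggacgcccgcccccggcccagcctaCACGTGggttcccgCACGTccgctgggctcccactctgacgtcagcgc
The Ldha window held 5 matches, counted on both strands and with overlaps, because CACGTG, found 2 times there, is a match on each strand. Over all 17 windows of the 10 genes, ACGTG stood in 6 windows of 5 genes: Aldoa, Hk2, Ldha, Pgk1 and Pkm. The Aldoa windows with a match overlap and hold the same site, which is counted in each. Of 32851 mouse promoter windows of the same length, 16.6% held ACGTG on either strand and 6.02% held CACGTG. Aldoa, which rose where the 3 genes shown fell, also had an ACGTG match, and no ACGTG was found in the Eno1, Eno2, Hk1, Gpi1 or Pfkp windows. The other form, GCGTG, stood in windows of Eno1, Hk1 and Pfkp and in the Ldha window not shown. It stood in 28.2% of the mouse promoter windows on either strand. A match shows only that the letters are in the window.

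The kept barcodes, with at least 500 unique molecular identifiers (UMIs, which count single transcripts), at least 300 genes and at most 20% mitochondrial UMIs, numbered 7193 to 8419 per library and held 58308739 to 86810253 UMIs. Pairs of libraries shared 9 to 21 barcode sequences. Yap1, the targeted gene, had 266 UMIs in SG males and 374 in SG females against 10 in the male YSG library and 3 in the female one, and where the counted 3' end lies relative to the deleted exons was not given. Barcodes were sorted into states by raw UMIs of marker genes. Those with at least 2 UMIs of Aqp4, an astrocyte water channel, were called Aqp4-positive, those with at least 5 UMIs over 10 genes of the G2 and M phases cycling, those with at least 3 over Grin2b, Kcna1 and Unc5c maturing, those with at least 3 over Cntn2 and Robo3 early postmitotic, and the rest stayed ungated. Cycling cells numbered 2099 to 3313 per library, early postmitotic cells 872 to 1131, maturing cells 158 to 590 and Aqp4-positive cells 13 to 102. Ungated cells numbered 3198 to 3932 per library, 41.8% to 49.9% of kept barcodes, and did not enter the state tests. Other markers set cycling apart from maturing and Aqp4-positive cells. The 7 progenitor markers summed to 1123 to 1229 counts per 1000000 UMIs (CPM) in cycling cells and 373 to 481 in maturing cells. The 5 early granule neuron markers summed to 609 to 1263 in cycling cells and 2641 to 3374 in maturing cells. The 8 astroglia markers summed to 328 to 417 in cycling cells against 3570 to 13809 in Aqp4-positive cells. The early postmitotic and maturing gates were less distinct. Early postmitotic cells held 2185 to 3150 CPM of the early granule neuron markers, less than maturing cells in each library. The 6 maturing neuron markers reached 303 to 411 CPM in cycling, 569 to 729 in early postmitotic and 733 to 940 in maturing cells. In maturing cells 1 or 2 of those 6 had no UMI. The maturing gate also held oligodendrocyte transcripts, with 5 markers at 247 to 1258 CPM against 29.1 to 93.5 in cycling cells. Aqp4-positive cells kept 946 to 1088 CPM of the progenitor markers, and ungated cells 730 to 920 CPM. Where 4 values follow each other, they stand for the male SG, male YSG, female SG and female YSG libraries in that order. Median depth was 9320 to 12669 UMIs in cycling cells against 5278 to 6046 in early postmitotic and 5313 to 7501 in maturing cells.

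Most of the enzymes were lower in the postmitotic gates than in the cycling gate, and a minority were higher. In early postmitotic against cycling cells, 6 of the 9 genes tested fell (Hk2, Pgk1, Pkm, Ldha, Eno1 and Gpi1), 2 rose (Aldoa and Hk1) and Pfkp did not pass. In maturing against cycling cells, the same 6 fell and 3 rose (Aldoa, Hk1 and Pfkp). States of each library were compared with edgeR's quasi-likelihood test on summed UMIs, with the library as a block, Benjamini-Hochberg adjustment over all features and a threshold of 0.05. Eno2 was too scarce for this fit. Over all 12488 features tested, 62.6% passed in the early postmitotic comparison, 30.7% higher and 31.9% lower, and 60.3% in the maturing one, 29.1% higher and 31.1% lower. The members' median log2 difference was -0.49 in early postmitotic and -0.69 in maturing cells, beside -0.00222 and 0.00403 over all features. Without the TMM scaling factors, the median of all genes sat higher by 0.11 on the log2 scale in each comparison with cycling cells. With the oligodendrocyte- or leukocyte-marked barcodes left out, an alternative added after the data were seen, the calls were again 8 and 9.

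**Figure D1:**
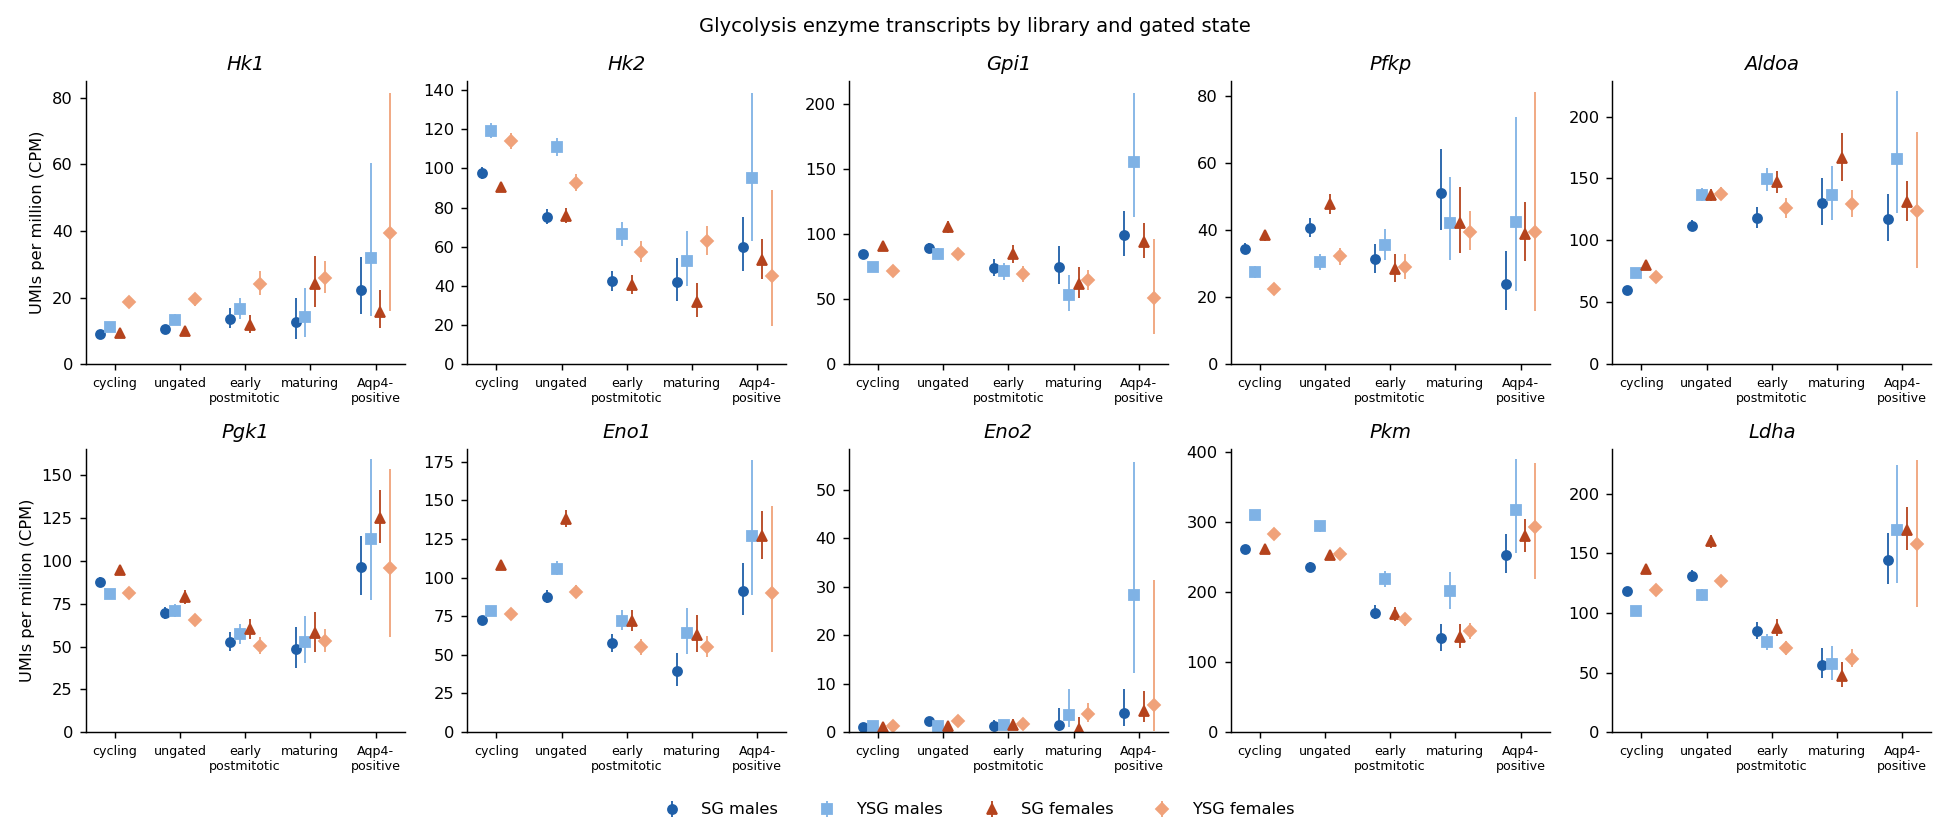
Each panel plots the CPM of 1 enzyme (y axis, from 0) in 5 states (x axis) for the 4 libraries, with 95% Poisson intervals that cover counting error only. Hk2, Pgk1, Pkm and Ldha are high in cycling and low in early postmitotic and maturing cells in every library, Aldoa runs the other way, and Eno2 stays under 4 CPM outside the Aqp4-positive cells.

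Hk2, the hexokinase that phosphorylates glucose at the entry of the pathway, fell most in the early postmitotic cells. Its level was 97.5, 119, 90.5 and 114 CPM in cycling cells and 42.3, 66.2, 40.6 and 57.2 CPM in early postmitotic cells. Maturing cells held 42.0, 52.7, 32.0 and 62.9 CPM. Every library was lower in both postmitotic states and the states did not overlap with cycling. The log2 difference was -1.16 ± 0.08 (SE, 4 libraries; edgeR adjusted p = 5.31e-08) for early postmitotic and -1.23 ± 0.10 (2.19e-07) for maturing cells.

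Hk1, the hexokinase known for neurons and red cells, moved the other way. It was at 9.18, 11.2, 9.53 and 18.8 CPM in cycling cells, at 13.7, 16.4, 11.8 and 24.2 in early postmitotic cells and at 12.6, 14.0, 24.0 and 25.9 in maturing cells. All 4 libraries were higher in both postmitotic states, but the ranges overlapped because the YSG female library was high throughout. The log2 difference was 0.34 ± 0.13 (edgeR adjusted p = 0.0371) in early postmitotic and 0.57 ± 0.17 (0.0106) in maturing cells. Both calls were marginal: the early one was lost without any of SG males (adjusted p = 0.145), YSG males (0.0955) or YSG females (0.0657), and the maturing one without SG females (log2 difference 0.35, adjusted p = 0.0547), each by edgeR.

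The share of Hk1 among the UMIs of the 2 hexokinases was higher in postmitotic cells of each library. Hk1 made up 8.60%, 8.62%, 9.52% and 14.2% of them in cycling cells, with 3469 to 5704 UMIs behind each share. It made up 24.5%, 19.9%, 22.4% and 29.7% in early postmitotic cells, from 352 to 640 UMIs. In maturing cells it reached 23.1% (95% Clopper-Pearson interval 14.3 to 34.0), 21.1% (12.5 to 31.9), 42.9% (32.9 to 53.3) and 29.2% (24.8 to 33.8), from 76 to 408 UMIs. The mean rise from cycling to maturing was 18.8 ± 9.75 percentage points (SD, 4 libraries), up in 4 of 4 libraries. The exact sign-flip permutation test gave two-sided p = 0.13, the smallest that 4 pairs allow, and 0.136 after Benjamini-Hochberg adjustment over the 12 share comparisons made. Hk2 kept most of the hexokinase UMIs in every library and granule-lineage state.

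Gpi1, which converts glucose 6-phosphate to fructose 6-phosphate, fell by less than the other 5. It ranged from 71.8 to 90.6 CPM in cycling, from 69.2 to 84.7 in early postmitotic and from 53.5 to 74.9 in maturing cells, with overlapping groups. The log2 difference was -0.21 ± 0.07 (edgeR adjusted p = 0.0135) and -0.42 ± 0.08 (0.000601). The early call was lost without TMM factors (-0.10, adjusted p = 0.188), and both were lost when gates were called on thinned barcodes.

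Pfkp, the platelet-type subunit of phosphofructokinase, the committed step, differed from cycling in the maturing but not in the early postmitotic test. In cycling cells it stood at 34.5, 27.4, 38.5 and 22.5 CPM, in early postmitotic cells at 31.5, 35.6, 28.6 and 29.0, and in maturing cells at 51.1, 42.1, 42.2 and 39.6. Maturing cells lay above cycling and early cells in every library. The log2 difference of maturing against cycling was 0.43 ± 0.14 (edgeR adjusted p = 0.0175), and it no longer passed without SG males (0.0623) or without YSG females (0.111). Early postmitotic against cycling gave -0.07 ± 0.12 (adjusted p = 0.608), which turned to 0.04 without TMM factors.

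Aldoa, the aldolase that splits fructose 1,6-bisphosphate, rose most. Its level was 59.7, 73.8, 80.0 and 70.3 CPM in cycling cells, then 118, 149, 147 and 126 in early postmitotic cells and 130, 137, 167 and 129 in maturing cells. No postmitotic library overlapped a cycling one. The log2 difference was 0.82 ± 0.06 (edgeR adjusted p = 5.62e-08) in early postmitotic and 0.88 ± 0.06 (8.5e-08) in maturing cells.

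Pgk1, the kinase that makes the first ATP of the pathway, fell from 87.9, 80.6, 94.5 and 81.6 CPM in cycling cells to 52.5, 57.3, 60.1 and 50.4 in early postmitotic cells and 48.3, 52.7, 57.6 and 53.1 in maturing cells. Its log2 difference was -0.76 ± 0.06 (edgeR adjusted p = 1.11e-07) and -0.79 ± 0.07 (4.86e-07).

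Eno1, the broadly used enolase, was at 72.6, 78.2, 108 and 76.6 CPM in cycling, 57.6, 72.2, 72.0 and 54.8 in early postmitotic and 39.2, 64.1, 62.8 and 55.1 CPM in maturing cells. It fell by a log2 difference of -0.49 ± 0.08 (edgeR adjusted p = 0.000117) and -0.69 ± 0.10 (4.17e-05), with no overlap of the groups. A retrogene copy, Eno1b, took 148 to 278 UMIs per library against 4476 to 9681 of Eno1, and reads between the 2 may have been split.

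Pkm, the pyruvate kinase that makes the last ATP, stood at 261, 310, 262 and 283 CPM in cycling cells, at 171, 218, 168 and 161 in early postmitotic and at 134, 201, 136 and 144 in maturing cells. It fell by -0.76 ± 0.05 (edgeR adjusted p = 5.69e-08) and -0.98 ± 0.06 (1.53e-08) on the log2 scale. Counts at the 3' end do not separate its M1 and M2 splice forms.

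Ldha, the lactate dehydrogenase subunit that favours lactate formation, went down stepwise. It was at 118, 102, 137 and 119 CPM in cycling cells, 85.2, 75.8, 87.6 and 70.6 in early postmitotic and 56.7, 57.1, 47.4 and 61.8 in maturing cells. The log2 difference to cycling was -0.69 ± 0.08 (edgeR adjusted p = 6.63e-06) and -1.17 ± 0.10 (3.17e-07).

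**Figure D2:**
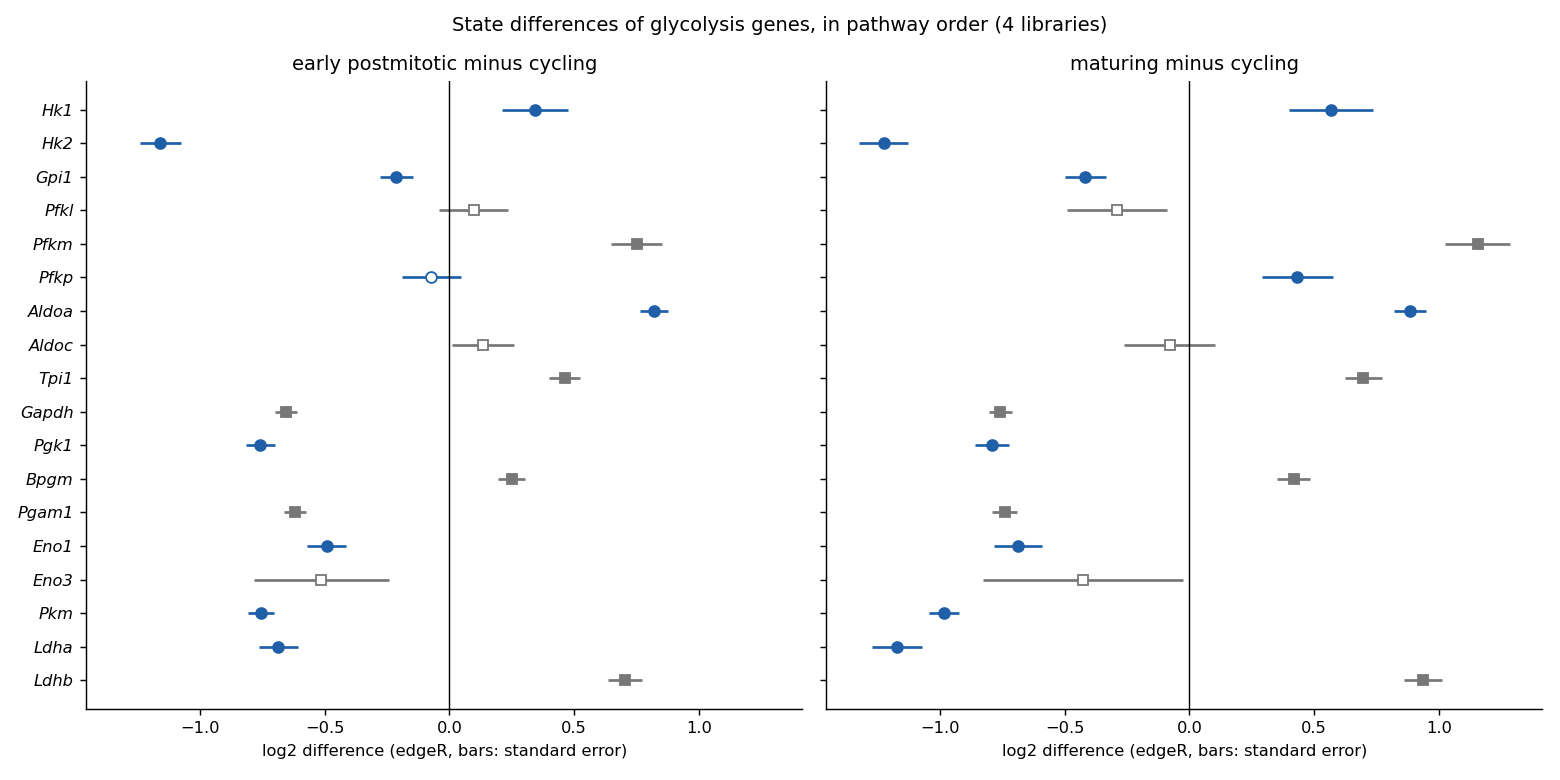
Log2 differences against cycling cells (x axis) with edgeR standard errors for 18 glycolysis genes in pathway order (y axis), early postmitotic on the left and maturing on the right. Blue circles are the listed enzymes, grey squares other glycolysis genes, filled where the adjusted p was under 0.05. Hk2, Pgk1, Pkm and Ldha lie left of 0 and Aldoa, Pfkm, Tpi1 and Ldhb right of it in both panels.

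Maturing and early postmitotic cells differed less. Of the 9 genes tested, Ldha fell (-0.49 ± 0.10, edgeR adjusted p = 0.0111) and Pkm fell (-0.23 ± 0.06, adjusted p = 0.0328), where 9.87% of all features passed, 5.71% higher and 4.16% lower. Pfkp was at 0.51 ± 0.15 with an edgeR adjusted p of 0.0508 and 0.0275 by DESeq2. The 2 calls fell to 1 without SG females or YSG females and to 0 without SG males (Ldha adjusted p = 0.0786, edgeR). They were also lost with stricter gates, where Ldha stood at -0.63 (0.0509).

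The other genes of the pathway did not all follow the listed enzymes. Of 21 further glycolysis genes, 14 were tested in early postmitotic against cycling cells, where 8 rose and 2 fell, and in maturing cells 7 rose and 3 fell. Ldhb, the lactate dehydrogenase subunit that favours pyruvate, rose from 83.7 ± 10.1 CPM (SD, 4 libraries) in cycling to 172 ± 10.7 in maturing cells (log2 difference 0.94 ± 0.08, edgeR adjusted p = 2.23e-07). Pfkm, the muscle-type phosphofructokinase subunit, rose by 1.15 ± 0.13 (4.93e-06), Tpi1, the triose phosphate isomerase, by 0.70 ± 0.07 (3.07e-06), and Pfkfb3, which makes the activator of phosphofructokinase, by 1.21 ± 0.13 (4.56e-06). Bpgm, Pfkfb2 and Tigar also rose. Gapdh fell from 603 ± 60.1 to 385 ± 34.5 CPM (-0.76 ± 0.05, edgeR adjusted p = 1.74e-08) and Pgam1 from 204 ± 6.63 to 133 ± 14.7 CPM (-0.74 ± 0.05, 4.03e-08), with Adpgk the third to fall.

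The 2 lactate dehydrogenase subunits moved in opposite directions in the same libraries. Ldhb made up 41.1%, 46.0%, 34.1% and 44.4% of their UMIs in cycling cells. It made up 63.2%, 66.6%, 57.6% and 71.1% in early postmitotic and 75.7%, 73.4%, 78.4% and 74.7% in maturing cells. The mean rise from cycling to maturing was 34.1 ± 7.40 percentage points (SD), up in 4 of 4 libraries (exact sign-flip permutation p = 0.13, the smallest possible, 0.136 adjusted). This pair was chosen after its values were seen.

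Transporters were mixed as well. Of 10 tested genes of glucose and lactate transport and pyruvate entry, 5 rose and 3 fell in maturing against cycling cells. Slc2a1, the glucose transporter GLUT1, went from 7.45 ± 1.17 to 3.89 ± 2.83 CPM (log2 difference -1.33 ± 0.30, edgeR adjusted p = 0.00184), while Slc2a3, the neuronal glucose transporter GLUT3, went from 16.9 ± 3.74 to 33.1 ± 5.91 (0.84 ± 0.14, 0.000198). Slc16a1, the lactate transporter MCT1, fell by -1.56 ± 0.16 (edgeR adjusted p = 2.53e-06) and Pdk3 fell too, and Slc16a7, Pdk1, Mpc1 and Mpc2 rose. Some of these rested on few UMIs in maturing cells: Slc2a1 on 5, 9, 5 and 6, Slc16a7 on 3, 9, 6 and 11, and Pdk1 on 3, 1, 3 and 13. Of 13 citric acid cycle genes, 7 fell (Cs, Idh3a, Idh3g, Sdha, Fh1, Mdh1 and Mdh2, by -0.17 to -0.49) and 6 did not pass. Of 12 tested hypoxia targets outside glycolysis, Vegfa, Ndrg1, P4ha1, Ddit4, Ero1l and Kdm3a fell and Bnip3 and Mxi1 rose.

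Eno2, the neuronal enolase, was scarce in these cells. It held 91 to 110 UMIs in a whole library, 1.22 to 1.85 CPM, and 1 to 17 UMIs among maturing cells. Its level was 1.05 to 1.31 CPM in cycling cells, 1.35 to 1.65 in early postmitotic cells and 1.40, 3.51, 0.571 and 3.70 CPM in maturing cells. The 2 YSG libraries were higher than the 2 SG libraries in the last state, on counts of 4 and 17 against 2 and 1. Eno1 made up 98.3% to 99.0% of enolase UMIs in cycling and 93.7% to 99.1% in maturing cells. The mean difference was -2.55 ± 2.07 percentage points (SD), down in 3 of 4 libraries (exact sign-flip permutation p = 0.25, 0.25 adjusted). In early postmitotic cells the difference was -0.87 ± 0.49 points, down in 4 of 4 libraries (exact sign-flip permutation p = 0.13, the smallest possible, 0.136 adjusted), on 9 to 13 Eno2 UMIs per library. The Eno2 level there was above cycling in 4 of 4 libraries with no overlap. Fitted without the low-count filter, Eno2 was at a log2 difference of 0.16 ± 0.30 (edgeR adjusted p = 0.763) in early postmitotic and 0.90 ± 0.39 (0.0614) in maturing cells. Without SG females, Eno2 entered the filtered test and passed in maturing cells at 1.22 ± 0.37 (edgeR adjusted p = 0.0142).

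**Figure D3:**
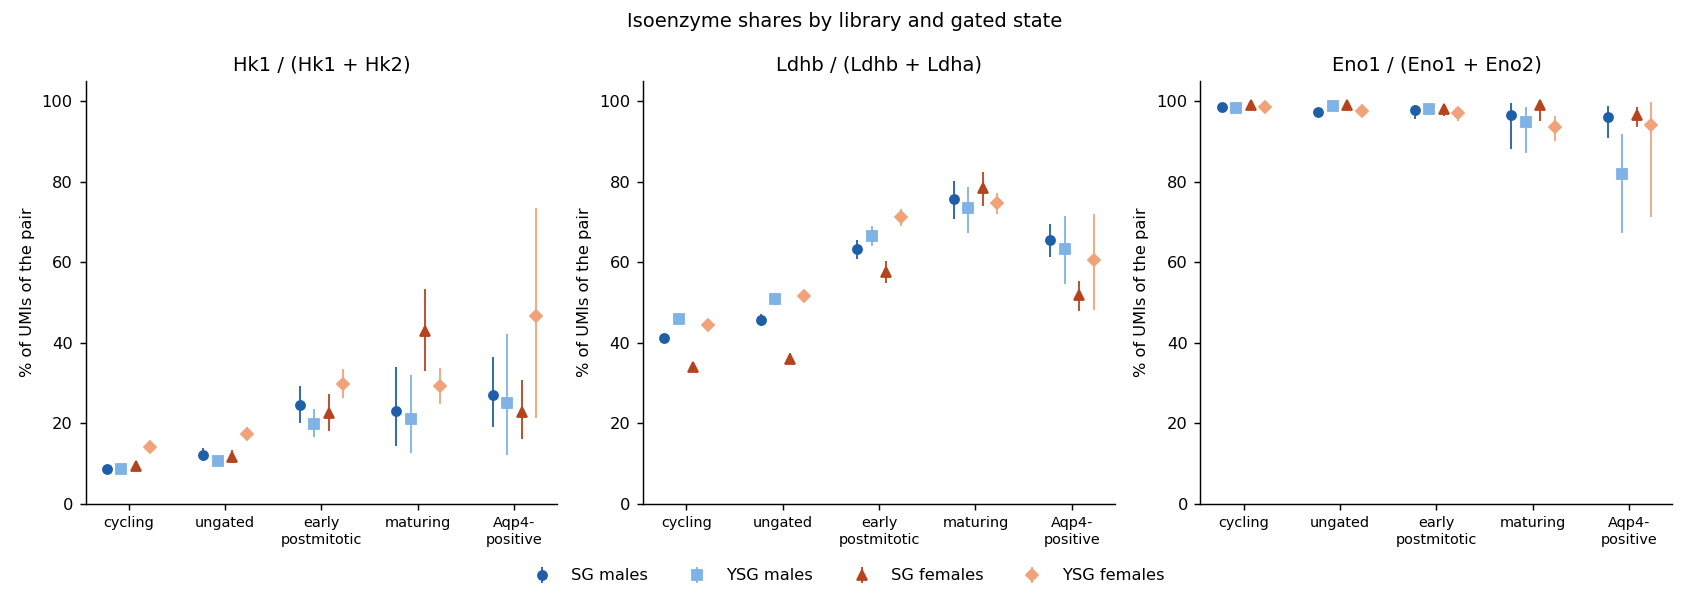
Share of the named isoenzyme in the UMIs of its pair (y axis, percent) by state (x axis) and library, with 95% Clopper-Pearson intervals. The Hk1 and Ldhb shares are higher in early postmitotic and maturing than in cycling cells in each library, and the Eno1 share is 93.7% or higher in the granule-lineage states.

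Aqp4-positive cells, 13 to 102 per library, held more Aldoa, Hk1 and Ldha and less Hk2 than cycling cells. Against cycling cells, 4 of the 10 genes were higher and 1 lower, where 14.3% of 12695 features were higher, 21.2% lower and 35.4% passed in all. The 4 include Eno2, which was too scarce for the fit without Aqp4-positive cells. It passed the low-count filter through the Aqp4-positive sums, on 5, 8, 9 and 1 UMIs, so the filter favoured its call. Aldoa was at 117 to 166 CPM (log2 difference 0.75 ± 0.09, edgeR adjusted p = 2.72e-06), Hk1 at 15.7 to 39.5 CPM (0.92 ± 0.22, 0.00319) and Ldha at 145 to 170 CPM (0.28 ± 0.10, 0.0356). Hk2 was lower at 45.1 to 95.3 CPM (-0.79 ± 0.12, edgeR adjusted p = 8.41e-05). Without SG males, the count of calls fell from 5 to 3, and Hk1 (0.0682) and Ldha (0.0837) no longer passed. Aqp4-positive cells also carried 946 to 1088 CPM of the progenitor markers, and the part of this in the results was not tested.

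Against maturing cells, 7 of the 10 genes were higher in Aqp4-positive cells, where 22.5% of features were higher, 20.9% lower and 43.4% passed. The 7 again include Eno2, whose call the low-count filter favoured. Apart from Eno2, the log2 difference was largest for Ldha at 1.45 ± 0.12 (edgeR adjusted p = 2.81e-08), followed by Pgk1 at 1.003 ± 0.10 (1.92e-07), Eno1 at 0.94 ± 0.12 (5.74e-06) and Pkm at 0.90 ± 0.08 (4.61e-08). Gpi1 (0.56) and Hk2 (0.43) also passed, the latter not without SG males, YSG males or SG females. Eno2 was at 3.85, 28.2, 4.42 and 5.64 CPM in Aqp4-positive cells, on 5, 8, 9 and 1 UMIs, and 4 of the 8 in YSG males came from 1 cell. Its log2 difference of 2.54 ± 0.48 to cycling cells (edgeR adjusted p = 0.000452) became 2.03 without YSG males, and that of 1.60 to maturing cells (0.0268) became 1.05 (0.142). The second call was also lost without SG females (edgeR adjusted p = 0.0626), with stricter barcode filters (0.0553) and without the replicate block (0.0529). Aldoc, the aldolase of astrocytes, took 37.1% to 73.2% of the aldolase UMIs in Aqp4-positive cells against 5.35% to 15.3% in cycling cells, up in 4 of 4 libraries (exact sign-flip permutation p = 0.13, 0.136 adjusted). That pair too was chosen after its values were seen.

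In cycling and early postmitotic cells, YSG libraries held more Hk1 and Hk2 than SG libraries, and in cycling cells less Pfkp. The gated cells also differed between genotypes in the early granule neuron markers. In cycling cells these summed to 668 and 609 CPM in the male and female SG libraries against 1128 and 1263 in YSG. In early postmitotic cells they summed to 2185 and 2194 against 2545 and 3150 CPM. The part of this in the genotype differences was not tested. Genotype was tested over the 4 libraries with edgeR and sex as a term, a fit added after the data were seen, which leaves 1 residual degree of freedom per gene. Over all kept cells 1 of 10 members passed, Hk1 (log2 YSG minus SG 0.64 ± 0.18, edgeR adjusted p = 0.0413), where 17.3% of features passed. In cycling cells 3 of 10 passed, where 18.8% of features did, and neither count sets the members apart from all features. Hk1 was higher in YSG by 0.64 ± 0.17 (edgeR adjusted p = 0.0199) and Hk2 by 0.31 ± 0.09 (0.0305), and Pfkp was at -0.56 ± 0.14 (0.0109). In early postmitotic cells 2 of 9 passed against 8.89% of features, Hk2 at 0.58 ± 0.14 (edgeR adjusted p = 0.00453) and Hk1 at 0.67 ± 0.22 (0.0487). In maturing and Aqp4-positive cells 0 of 9 passed in edgeR, with 1 and 0 at an unadjusted p under 0.05, 0 in DESeq2, and 1.82% and 2.51% of features called. Without the sex term no member passed in any state, and DESeq2 kept Hk1 over all cells (adjusted p = 0.0425) and Pfkp in cycling cells (0.0243) alone.

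Within each sex there was 1 library per genotype, so folds by sex carry no test. Genotype cannot be told apart from animal, age, litter or capture there. The test over the 4 libraries cannot separate genotype from age, litter or capture where these went with it. Over all kept cells, the median log2 YSG over SG ratio of the 10 genes was 0.10 in males and -0.16 in females, beside -0.01 and -0.01 over all features at 10 CPM or more. Eno2, under 10 CPM outside the Aqp4-positive cells, is not counted elsewhere in what follows. No member was past 1.5-fold in males, where 4.78% of features were higher and 4.51% lower by that much. In females 1 was, Hk1, where 7.33% were higher and 5.5% lower. Within the states of males, 0 members were past 1.5-fold in cycling cells (5.44% of features higher, 4.74% lower), 1 was higher in early postmitotic cells (4.35% higher, 3.54% lower) and 1 in maturing cells (10.1% higher, 6.98% lower). Within those of females, 1 was higher and 1 lower in cycling cells (6.05% and 5.16%), 1 was higher in early postmitotic cells (6.88%, with 3.94% lower) and 1 in maturing cells (7.3%, with 5.7% lower). In Aqp4-positive cells of males all 10 genes were higher in YSG, from 29 YSG and 101 SG cells. Their median log2 ratio was 0.50, beside -0.00608 over all features at 10 CPM or more. Past 1.5-fold were 4 of them (Hk2, Gpi1, Pfkp and Eno2), where 19% of features were higher and 18.7% lower by that much. Eno2 reached 10 CPM in the YSG male library alone, on 8 UMIs with 4 from 1 cell. Its place among the 4 was thus set by the library called higher. In Aqp4-positive cells of females, 4 of 10 were higher, with Hk1 past 1.5-fold higher and Gpi1 lower, from 13 YSG and 102 SG cells, where 20.8% were higher and 24.4% lower. Intervals below are 95% exact conditional binomial intervals that cover counting error only.

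Hk1 stood at 10.3 CPM in SG females and 20.4 in YSG females (1.99-fold, 1.82 to 2.17), beside 10.2 and 12.6 CPM in the male libraries (1.23-fold, 1.11 to 1.36). The female fold was 1.97 in cycling cells, 2.06 in early postmitotic and 1.08 in maturing cells (0.754 to 1.57). Hk2 was higher in YSG in both sexes, with a male fold of 1.29 (1.25 to 1.34) and a female fold of 1.17 (1.13 to 1.21). Early postmitotic cells of males reached 1.57-fold (1.34 to 1.83) for Hk2, and maturing cells of females 1.97-fold (1.47 to 2.67).

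Over all cells, Pfkp was lower in YSG in both sexes, with a male fold of 0.821 (0.773 to 0.872) and a female fold of 0.702 (0.662 to 0.745). In cycling cells of females it was 0.583-fold (0.531 to 0.639), the 1 member past 1.5-fold lower there. Ldha was 0.872-fold in males and 0.807-fold in females, Gpi1 0.913-fold and 0.809-fold, and Pgk1 0.944-fold and 0.790-fold. In the edgeR test over the 4 libraries, these 4 genes did not pass over all cells. The adjusted p was 0.0569 for Pfkp, 0.0905 for Ldha, 0.161 for Gpi1 and 0.2 for Pgk1 (edgeR). Their folds over all cells had counting intervals below 1 in both sexes. That direction did not hold in every state. For early postmitotic Pfkp the male fold was 1.13 (0.936 to 1.37) and the female fold 1.02 (0.834 to 1.24). Pgk1 was 1.09-fold in both early postmitotic (0.940 to 1.26) and maturing cells (0.758 to 1.56) of males. For maturing Ldha the female fold was 1.30 (1.02 to 1.69) and the male fold 1.01 (0.714 to 1.41), and for maturing Gpi1 the female fold was 1.04 (0.836 to 1.31).

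Eno1 went in opposite directions. It was at 75.2 CPM in SG and 86.6 in YSG males (1.15-fold, 1.11 to 1.20) and at 112 and 76.8 CPM in females (0.688-fold, 0.664 to 0.713). The SG female library stood out, since the other 3 lay between 75.2 and 86.6 CPM. For Pkm the male fold was 1.20 (1.18 to 1.23) and the female fold 0.983 (0.962 to 1.004). For Aldoa the male fold was 1.27 (1.23 to 1.32). Its female fold was 1.04 (1.01 to 1.08) over all cells but 0.777 to 0.878 within the cycling, early postmitotic and maturing states. Ungated cells held 2636 Aldoa UMIs of 19296725 in SG females and 2687 of 19495729 in YSG females. Maturing cells were 8.20% of YSG females and 1.96% to 2.38% of the other 3 libraries, and cycling cells 29.2% against 35.5% to 43.1%. The part of these shares in the folds was not tested.

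**Figure D4:**
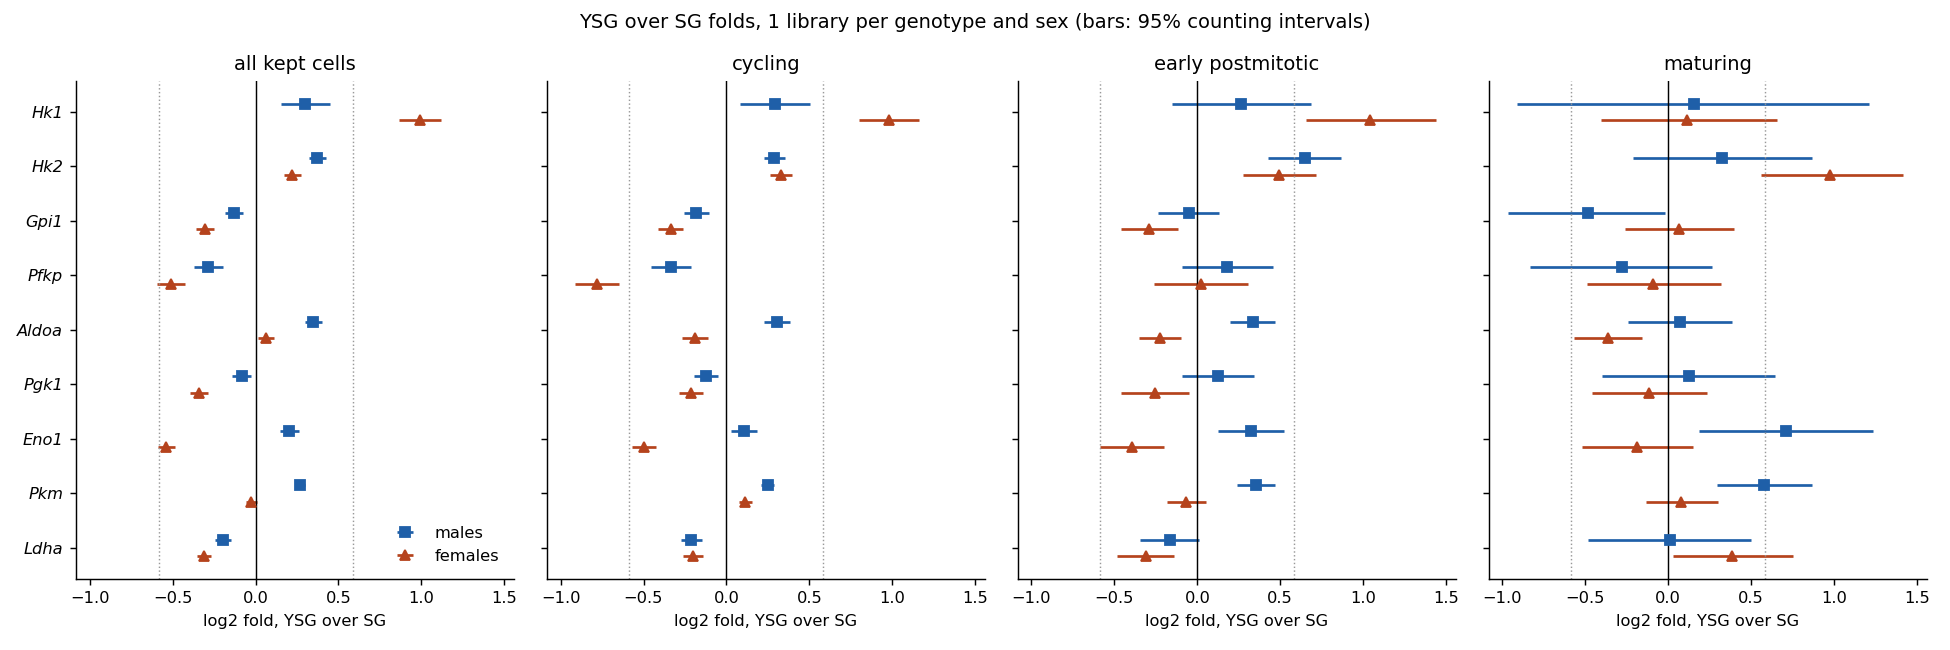
Log2 YSG over SG folds (x axis) of 9 enzymes (y axis; Eno2 left out for its low counts) in all kept cells and 3 states, males as squares and females as triangles, with 95% counting intervals and dotted lines at 1.5-fold. Hk1 in females lies right of the line in all cells, cycling and early postmitotic cells, and Eno1 splits by sex to both sides of 0.

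Across the 12 sums of granule-lineage states and libraries, the features with patterns most like Hk2 among 4025 at 50 CPM or more were Ezr (Pearson r = 0.976), D430041D05Rik (0.962) and Hjurp (0.960). Eno1 was most like Ndufv1 (0.927), Rexo2 (0.926) and Rngtt (0.903). The sums share libraries and differ in depth, so these values are descriptive.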

How the data were processed

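Counts deposited by the authors were whole numbers of UMIs per gene and barcode, not normalized; Cell Ranger 5.0.1 made them per the file headers, and the submitters' processing notes name mm10. Summed counts per library and state were turned into CPM and tested with edgeR 4.0.16 (R 4.3.3; filterByExpr, TMM, library as block) on 12 sums, or 16 with Aqp4-positive cells. DESeq2 1.42.0 was an alternative. Standard errors are the log2 difference divided by the root of the F statistic. Genotype was also tested over the 4 libraries with sex as a term, a test added after the data were seen. Genotype ratios used a pseudocount of 1 CPM, and folds used none. The 4 libraries serve as replicates of a state difference, across both genotypes and sexes; whether each was 1 animal was not given. Scrublet's own threshold called 0 doublets, so doublets stayed in; an alternative removed 4.85% to 5.30% of barcodes by score. A second feature named Aldoa (1 to 15 UMIs per library) was not used. Promoters came from RefSeq GRCm38.p6, matched for 10 of 10 genes by symbol. The code was tested on simulated data. The named genes were all 10 members and listed pathway genes that passed the test or had the largest or smallest change; members, gates and lists were chosen with earlier results of these data known. Gate genes themselves are not reported.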

Additional observations from a re-analysis of the deposited data

Results flagged for a closer look

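Eno1 went in opposite directions with genotype in the 2 sexes. Its log2 YSG over SG ratio over all kept cells was 0.202 in males and -0.533 in females, with counting intervals that lie on opposite sides of no change. With 1 library per genotype and sex, an interaction term leaves no residual degree of freedom, so the difference between the sexes was not tested. The directions were the same within the cycling, early postmitotic and maturing states, with male folds of 1.08, 1.25 and 1.63 and female folds of 0.708, 0.761 and 0.877, the last with an interval of 0.698 to 1.11.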

How the results depend on the processing

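Of 703 log2 differences of single genes recomputed under other settings, 606 kept their direction and side of the threshold, 48 lost their call, 24 gained one and 25 turned direction. The turned ones were uncalled in the main analysis. They were Pfkp in early postmitotic against cycling cells (0.0989 with gates on thinned barcodes, -0.184 to 0.0857 when a library was left out, positive without SG females, 0.0375 without TMM factors) and in Aqp4-positive against cycling cells (0.0272 with doublets removed, 0.103 with thinned gates, 0.024 without oligodendrocyte- and leukocyte-marked barcodes, an alternative chosen after seeing the data, -0.161 to 0.222 when a library was left out, positive without SG males, 0.0631 with DESeq2, 0.0681 without TMM factors, 0.0344 without the replicate block). Pkm against cycling in Aqp4-positive cells turned with thinned gates (0.036), without YSG males (0.00425), without YSG females (0.00106; range -0.148 to 0.00425 when a library was left out) and without TMM factors (0.037). In maturing against early postmitotic cells, Hk2 turned with stricter gates (0.0769), thinned gates (0.195), an S-phase cycling gate (0.0234) and without YSG males (range -0.235 to 0.0206), Pgk1 with the S-phase gate (0.00655) and without YSG males (range -0.0965 to 0.00297), Hk1 without SG females (range -0.0246 to 0.338), and Aldoa (-0.129) and Eno1 (0.156) with thinned gates. Aldoa in Aqp4-positive against maturing cells turned with stricter gates (0.155) and with thinned gates (0.582, edgeR adjusted p = 0.0182). Calls in maturing against early postmitotic cells fell from 2 to 1 with doublets removed, the S-phase gate or no replicate block, to 0 with stricter or thinned gates, and ranged from 0 to 2 when a library was left out. Calls in Aqp4-positive against cycling cells ranged from 3 to 7 when a library was left out. Without the replicate block, calls were 6 of 9 for early postmitotic and 7 of 9 for maturing against cycling, and 4 and 5 for Aqp4-positive against cycling and maturing. With DESeq2 the 5 counts were 8, 9, 3, 7 and 7. The median female genotype ratio was -0.115 as a mean over the 3 granule-lineage states. Of 100 genotype ratios of single genes recomputed within each sex, 84 stayed within their counting interval and 16 moved beyond it, the latter with the mean over states. In the genotype test with sex as a term, chosen after seeing the data, as were its alternatives, the 1 call over all kept cells became 0 without the sex term and 0 without TMM factors. The 3 calls in cycling cells became 0 without the sex term and 1 with DESeq2, and the 2 in early postmitotic cells became 0 with each. Leaving out a library leaves that fit no residual degree of freedom. The cause was not tested in any of these. Thinned gates left 20 to 126 maturing and 3 to 46 Aqp4-positive cells per library, which limits those values.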
